A study of Rattus norvegicus with 7 samples.

Results

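The 2 arrays described here were both made from primary rat hippocampal astrocyte cultures, 1 without grape seed extract and 1 after 24 h with 100 µg/ml of it, out of a set of 7 arrays. The labels for cell type and dose define them, and no measured value enters that rule, although the comparison was picked with earlier results of these data known. Grape seed extract is a plant extract rich in polyphenols. The other 5 arrays hold the same cultures at 1 and 10 µg/ml and primary hippocampal neuron cultures at 0, 1 and 10 µg/ml. The animals were Wistar rats, labelled 17-day-old, with no transgene or other treatment given in the labels, and all cultures were kept in DMEM with 1 mM glutamine, the N1 supplement, penicillin and streptomycin. A primary culture of this kind can hold other cells of the tissue besides astrocytes, and the labels do not say how many animals or dishes went into an array. Each combination of cell type and dose was measured on 1 array. A difference between 2 arrays therefore has no error and no test, and is given below as a size.

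Astrocytes are the glial cells that take up glutamate, pass ions and metabolites to one another through gap junctions and answer injury and infection by secreting cytokines and chemokines. In such an answer, transcription factors already present in the cell, such as NF-kB and those phosphorylated by MAP kinases, switch on immediate early genes within minutes. The products of these genes and of NF-kB then drive genes of inflammation, matrix breakdown and feedback. A second program, the integrated stress response, slows translation and raises ATF4, which drives genes of amino acid supply and the factors Atf3, Ddit3 and Trib3.

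The values are array signals, brightness on a linear scale with nearly the same trimmed mean on each array. Where 4 signals follow a gene's name, they are those of the untreated culture and of the cultures at 1, 10 and 100 µg/ml, in that order, and a value in brackets after them is the relative log2 change defined here. The median signal of 8740 probe sets was 84.4, 80.2, 73.5 and 65.4 on these 4 arrays. Among the 4252 probe sets whose mean log2 signal over the 4 arrays lay above the median of all signals (79.9), the median log2 change from 0 to 100 µg/ml was -0.26. Each change below is therefore given as a relative log2 change, the log2 ratio of 100 over 0 µg/ml minus that median, and a gene is called higher or lower where its relative change reaches 2-fold. Any signal under 17.9 (25% of all values) was raised to that floor, so a change from or to such a signal is given as a bound. Several control values differed on the treated array. The 3′ to 5′ signal ratio was 10.6 for actin and 1.90 for Gapdh at 100 µg/ml, against 8.92 to 9.29 and 2.42 to 2.66 on the other astrocyte arrays. On the neuron arrays it was 10.5 to 10.8 for actin and 2.67 to 3.24 for Gapdh. The poly-A spike-ins were 1.33-fold to 3.11-fold brighter than on the untreated array, and the hybridization controls were 0.984-fold to 1.19-fold. The spike-ins were brighter at 10 µg/ml as well: at 0, 1, 10 and 100 µg/ml DapX had signals of 465, 582.1, 919.1 and 1188.6, LysX 191.2, 194.9, 254.7 and 254.6, PheX 119.7, 196.2, 309.6 and 324.8 and ThrX 169.2, 174.1, 309.7 and 526.5. The part of these values in the changes below was not tested.

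Of the 4252 probe sets, 400 were at least 2-fold higher at 100 µg/ml (9.41%) and 573 at least 2-fold lower (13.5%), while 77.1% lay within 2-fold. Without the centring on -0.26 the split was 282 higher against 806 lower. The large changes ran mostly upward, with 53 probe sets at least 16-fold higher and 5 at least 16-fold lower. Counted by gene, with the brightest probe set standing for each, 237 of 2695 genes were higher (8.79%) and 372 lower (13.8%). These shares are the background for every list below, and a list with counts near them does not stand out from all genes. The array at 100 µg/ml enters the signal filter, so the higher genes include some that were kept only through their signal there. The lower genes lay mostly among dim probe sets: 18.2% of the 1063 probe sets with the lowest mean signals were lower and 4.33% of the 1063 with the highest, whereas the share of higher probe sets was 8.37% and 9.22%. Near the limit itself, 74 and 96 genes lay within 0.1 log2 of 2-fold on its opposite sides.

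**Figure D1:**
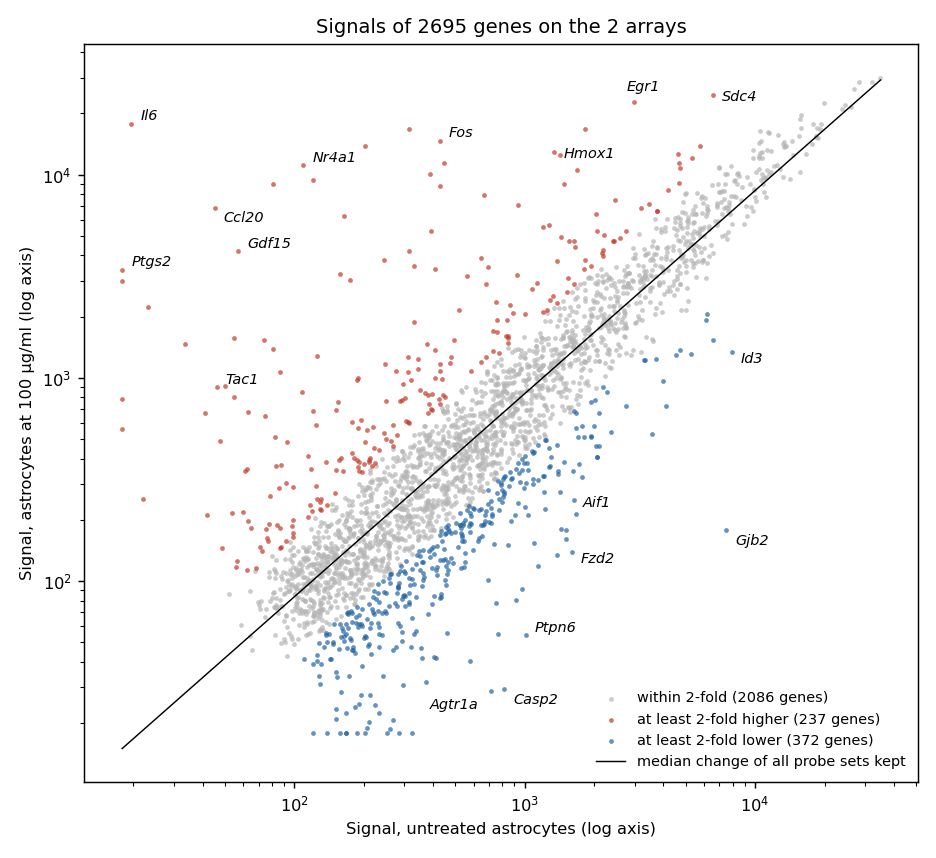
Signals of 2695 genes on the untreated astrocyte array (horizontal, log axis) and on the array at 100 µg/ml (vertical, log axis), 1 point per gene and 1 array a side, with signals under the floor of 17.9 drawn at 17.9. The 237 genes at least 2-fold higher reach farther from the line of the median change than the 372 lower ones, with Il6 at the top left and Gjb2 at the lower right.

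Most of these differences stood apart from the lower doses as well. Of the 237 higher genes, 205 had a higher signal at 100 µg/ml than on each of the other astrocyte arrays, and 30 had their highest signal at 10 µg/ml. Of the 372 lower genes, 364 had their lowest signal at 100 µg/ml. The 25 genes with the largest upward change had a median signal of 74.0, 91.6, 442 and 4197 at 0, 1, 10 and 100 µg/ml. For the 25 with the largest downward change, the medians were 577, 525, 204 and 30.7. These sets were chosen by the size of the same change, so the values describe them and test nothing.

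**Figure D2:**
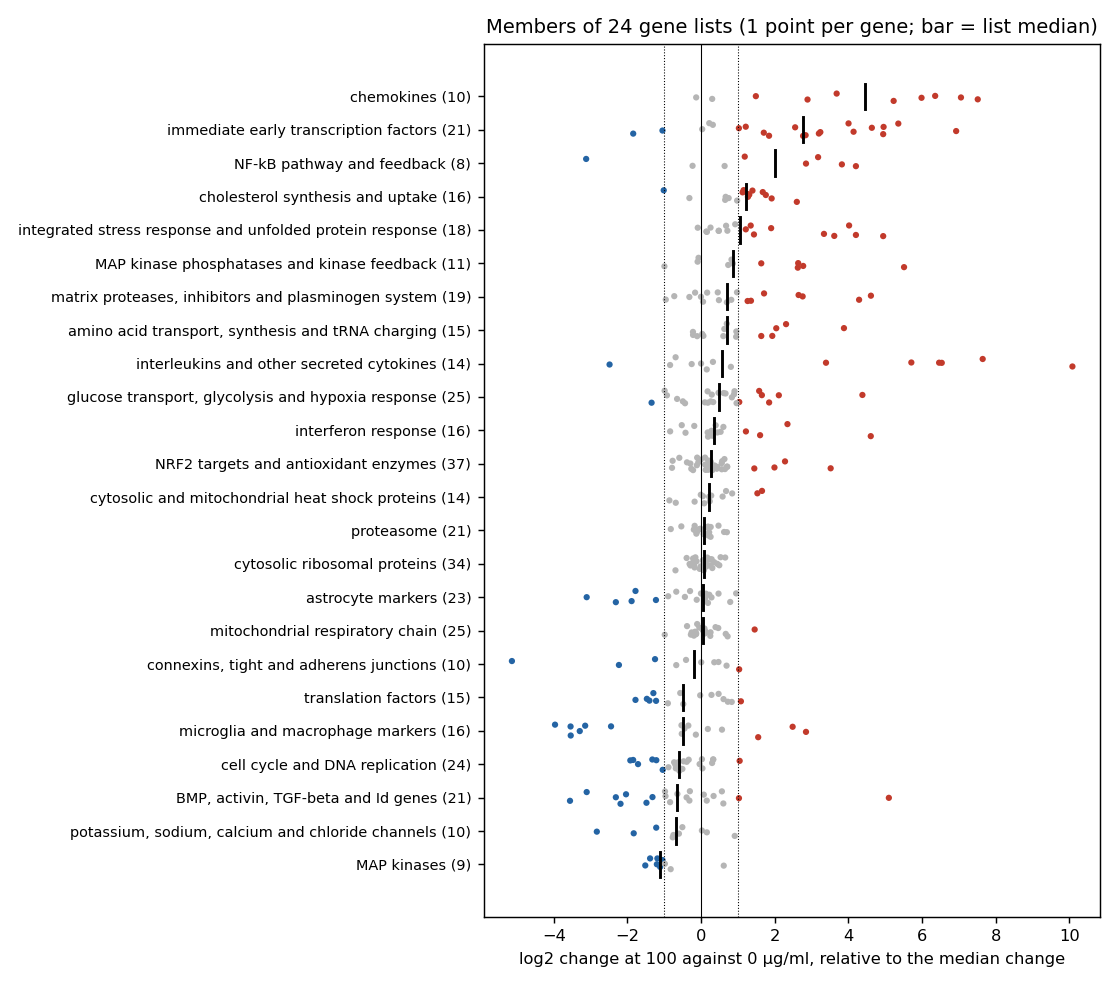
Relative log2 change at 100 against 0 µg/ml (horizontal axis) for the measured members of 24 gene lists, 1 point per gene with higher genes in red and lower genes in blue, the number of members in brackets and a bar at each list's median. Dotted lines mark 2-fold. Chemokines and immediate early transcription factors sit far to the right, MAP kinases to the left, and ribosomal protein and proteasome genes stay between the dotted lines.

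The cultures carried RNA of several cell types, which bears on all that follows. Of the defining astrocyte markers, S100b, a calcium-binding protein, had signals of 9085, 7715, 7828 and 6986, and Aldoc, a glycolytic enzyme of astrocytes, 7169, 8163, 6983 and 8312. Slc1a3, a glutamate transporter, stood at 3976, 4162, 3946 and 966. Those 3 lay far above the filter on every astrocyte array. Gja1, the main astrocyte connexin, had 144.5, 149.8, 57.0 and 75.6 and the water channel Aqp4 567, 570.0, 499.9 and 255, while Slc1a2, the other main glutamate transporter, lay near the floor (25.2, 40.7, 43.1 and 14.8). In the neuron cultures the probe set of Slc1a3 had higher signals than in any astrocyte culture, from 9644 to 9877. Of the 4 defining neuron markers on the array, 3 lay under the filter of 79.9 on every astrocyte array: Nefl had signals of 13.9, 10.5, 27.1 and 35.1, Snap25 14.9, 37.3, 23.1 and 48.9 and Syt1 2.9, 1.9, 1.5 and 4.1, and Map2 936, 1036.5, 749 and 382. The whole neuron marker list had 15 of its 27 members on the array above the filter, with a summed signal of 15867, 16213, 14168 and 14821 at the 4 doses and between 40499.9 and 43754.4 in the neuron cultures. Markers of other cells were present. The fibroblast collagens Col1a1, Col1a2 and Col3a1 had untreated signals of 6537, 16613 and 14385, the myelin gene Mbp 3895, the complement gene C1qb of microglia 2722 and the microglial calcium-binding protein Aif1 1636.5. Not every marker of these cells was measured. Of the other myelin genes, Mag and Cnp passed the filter and Mog did not. Of the endothelial and pericyte markers, Acta2 passed it and Pecam1, Vwf and Pdgfrb did not. In RNA from a whole culture, fewer cells of a type and less RNA per cell cannot be told apart.

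Secreted cytokines held the largest change of the comparison. Of 22 list members on the array, 14 had enough signal to be measured, of which 6 were higher and 1 lower. Il6, interleukin 6, had signals of 19.6, 26.8, 442 and 17783, a relative log2 change of 10.09, with its dimmer probe set at 7.24. Csf3, the granulocyte growth factor, had 14.3, 37.0, 209 and 2998 (relative log2 change at least 7.65). Both had a higher signal at each dose step, from an untreated signal near or under the floor. Il1a, interleukin 1 alpha, had 121, 247, 1958 and 9387 (6.54). Il1b, its secreted relative, was already well above the filter untreated, with 1419.7, 1701, 5766 and 12448 (3.39). Tnf, the tumour necrosis factor, had 33.5, 6.2, 72.4 and 1465 (5.71), with the signals at 0 and 1 µg/ml near or under the floor. Gdf15, a stress-induced member of the TGF-beta family, had 56.9, 28.6, 168 and 4197 (6.47). Il15, which sustains natural killer and T cells, went the other way (120.1, 110.2, 291 and 16.8, relative log2 change at most -2.49), after its highest signal at 10 µg/ml. Csf1, Il18, Spp1, Tgfb2, Tgfb3, Cntf and Mif lay within 2-fold. Il1rn, the antagonist of the interleukin 1 receptor, was left out by the signal filter because of its low signals at lower doses, with 8.4, 5.0, 25.4 and 829.6.

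Chemokines, the secreted proteins that draw in leukocytes, were the list with the highest median. Of 13 on the array 10 were measured, 8 of them higher and none lower, with a median relative log2 change of 4.46 beside -0.02 over all genes. Ccl3 and Ccl4 draw in monocytes and T cells. Ccl3 had signals of 315, 373, 3114 and 16708, and Ccl4 202, 232, 1713 and 13859. Their relative log2 changes were 5.99 and 6.36. Cxcl2, which draws in neutrophils, had 81.0, 91.6, 1224 and 9014 (7.06). Ccl20, the ligand of Ccr6, had 45.1, 72.5, 3475 and 6884 (7.51). These 4 had their highest signal at 100 µg/ml. Ccl2, the monocyte chemokine, reached its level at 10 µg/ml already (1691.5, 3849.9, 11173 and 10477, relative log2 change 2.89). Ccl5 did too (7.1, 11.5, 671 and 561, at least 5.23). Cxcl13 and Pf4 lay within 2-fold. Microglia and macrophages also make many of these proteins. Of 21 markers of those cells on the array, 16 were measured, 3 higher and 6 lower, and their summed signal was 36564, 39249, 44609 and 38288 at the 4 doses. Of the defining ones, Csf1r and Itgam lay near or under the floor on every astrocyte array, between 7.6 and 29.0, and Cx3cr1 had 93.3, 100.0, 51.2 and 28.3. The part of these cells in the changes was not tested.

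The promoters of 5 genes at the ends of the comparison are shown to give the sequence beside the values, for 4 genes with large upward changes and for Gjb2, the gene with the largest downward change. Each is the 250 bases before the RefSeq start site of the gene, read 5′ to 3′ on its own strand in the GRCr8 rat genome. Capitals mark matches, on either strand, to the AP-1 letters TGANTCA, the cyclic AMP response element TGACGTCA, the TATA box TATAAA, the NF-kB motif or the CArG box. Positions are counted from the start site as base 0. Il6 lies on the minus strand, with the window at chr4:5894576-5894825. Cxcl2 is on the minus strand at chr14:17467256-17467505, Il1a on the minus strand at chr3:136990018-136990267, Dusp1 on the plus strand at chr10:17184603-17184852 and Gjb2 on the minus strand at chr15:35381954-35382203. The 5 were picked after the matches had been seen.
Il6: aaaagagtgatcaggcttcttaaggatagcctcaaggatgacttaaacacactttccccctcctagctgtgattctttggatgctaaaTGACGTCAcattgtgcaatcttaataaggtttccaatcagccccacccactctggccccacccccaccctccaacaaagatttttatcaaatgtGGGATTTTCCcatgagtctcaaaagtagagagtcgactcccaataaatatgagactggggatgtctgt
Cxcl2: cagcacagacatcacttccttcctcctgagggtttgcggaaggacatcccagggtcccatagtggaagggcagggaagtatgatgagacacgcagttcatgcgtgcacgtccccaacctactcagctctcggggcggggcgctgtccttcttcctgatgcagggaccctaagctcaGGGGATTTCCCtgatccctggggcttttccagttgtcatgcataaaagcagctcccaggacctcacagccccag
Il1a: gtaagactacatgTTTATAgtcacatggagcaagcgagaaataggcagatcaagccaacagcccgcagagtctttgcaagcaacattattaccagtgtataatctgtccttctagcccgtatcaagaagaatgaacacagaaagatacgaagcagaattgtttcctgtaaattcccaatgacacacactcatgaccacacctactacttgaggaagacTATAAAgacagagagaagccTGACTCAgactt
Dusp1: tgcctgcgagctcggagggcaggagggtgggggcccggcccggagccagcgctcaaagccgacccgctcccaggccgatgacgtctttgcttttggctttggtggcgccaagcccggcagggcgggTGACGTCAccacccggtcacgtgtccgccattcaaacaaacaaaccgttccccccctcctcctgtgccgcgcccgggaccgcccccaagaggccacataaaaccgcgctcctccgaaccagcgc
Gjb2: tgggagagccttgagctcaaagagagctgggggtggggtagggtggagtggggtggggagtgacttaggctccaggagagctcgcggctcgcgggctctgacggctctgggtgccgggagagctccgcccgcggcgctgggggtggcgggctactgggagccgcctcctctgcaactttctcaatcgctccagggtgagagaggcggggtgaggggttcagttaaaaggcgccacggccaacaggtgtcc
The Il6 window holds a cyclic AMP response element at -162 to -155 and an NF-kB match at -68 to -59. That of Cxcl2 holds a pair of overlapping NF-kB matches at -74 to -65 and -73 to -64. In Il1a there are an AP-1 match at -12 to -6 and TATA boxes at -32 to -27 and, on the other strand, at -237 to -232. Dusp1 has a cyclic AMP response element at -124 to -117. The Gjb2 window holds none of these letters, which says nothing about other elements or about sequence outside it.

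Over the whole comparison, the same letters were counted in the windows of 300 bases, 250 before to 50 after the start, that RefSeq gives for 62 of the 84 genes at least 4-fold higher, 60 of the 81 at least 4-fold lower and 2241 of the 2695 measured. The AP-1 letters were in 16.1% of the windows of the higher genes, 3.33% of the lower genes and 4.86% of all measured genes. NF-kB matches stood at 16.1%, 1.67% and 4.86% of the same sets. TATA boxes stood at 27.4%, 10.0% and 8.84%. Over the 27457 promoters of the table, the shares were 7.33%, 4.16% and 14.3% for AP-1, NF-kB and the TATA box. The CArG box, which serum response factor binds, was in 4 windows of the higher genes and 1 of the lower (6.45% and 1.67%, against 1.56% of all measured genes). The cyclic AMP response element was in 3 and 2 (4.84% and 3.33%, against 2.86%). The other letters searched were CCAAT (45.2%, 38.3% and 38.6% of the 3 sets), the antioxidant response element TGACNNNGC (22.6%, 13.3% and 15.3%), the cell cycle homology region TTTGAA (9.68%, 18.3% and 9.55%), the end of the ER stress element CCACG (38.7%, 41.7% and 47.4%) and the sterol element TCACNCCAC (3.23%, 0% and 1.07%). The C/EBP-ATF letters TTGCATCA were in 0 windows of the higher and 0 of the lower genes, and in 11 of all measured genes. Both strands were searched, and matches to different motifs may overlap. The genes of each set share a large change in these 2 arrays, and base composition was not compared between the sets, so the shares describe the sets. A match is a string of letters and not a site shown to be bound.

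**Figure D3:**
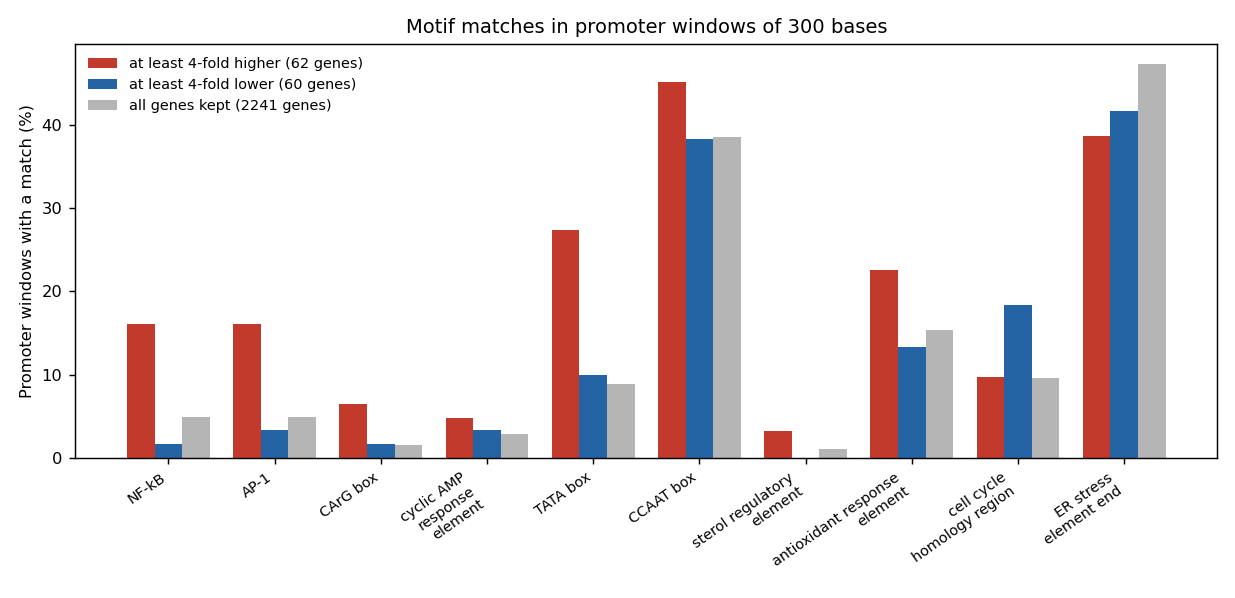
Share of promoter windows of 300 bases with a match to each of 10 motifs (vertical axis, %), for 62 genes at least 4-fold higher, 60 at least 4-fold lower and 2241 measured genes at 100 against 0 µg/ml. NF-kB, AP-1 and TATA box bars are taller for the higher genes (16.1%, 16.1% and 27.4%) than for the lower genes or all genes, and bars of the ER stress element end are not.

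NF-kB is the factor that drives many of the cytokine genes, and it also induces its own inhibitors. Of 8 measured members of 13 on the array, 5 were higher and 1 lower, with a median relative log2 change of 2.02. Nfkbia, the inhibitor that NF-kB itself induces, had signals of 668, 993, 4036 and 7897 (3.82). Zfp36, a protein that destroys cytokine mRNAs, had 934, 1136, 2903 and 7059 (3.18). Cebpb, a factor that acts with NF-kB at cytokine promoters, had 246, 367, 1445 and 3790.4 (4.21). These 3 were at their highest at 100 µg/ml. Cebpd, a relative of Cebpb, lay within 2-fold (0.64). The NF-kB subunit gene Nfkb1 was highest at 10 µg/ml, with 2157, 2099, 5534 and 4096 (1.19). The receptors of bacterial lipopolysaccharide parted: Cd14 had 1488, 1922, 7418 and 8952 (2.85), whereas Tlr4 went from 187 to 11 at its brighter probe set (relative log2 change at most -3.12), its other probe set lying under the floor on both arrays.

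The receptors of cytokines and chemokines pass on the signal of these proteins. Of 13 measured, 3 were higher and 3 lower, with a median of -0.10, and 12 more on the array were too dim. Cd40, a receptor that activates antigen-presenting cells, had signals of 152, 172, 433 and 696 (2.45), and Tnfrsf1b, a tumour necrosis factor receptor, 63.0, 55.3, 173 and 196 (1.90). Il1r2, a decoy receptor of interleukin 1, had 77.2, 82.0, 90.7 and 158 (1.29). Each had its highest signal at 100 µg/ml. Tnfrsf21, a death receptor, had 1503, 1519, 1649 and 178 (-2.81). Tnfrsf11b, a decoy receptor that restrains bone resorption, had 196, 131, 105 and 60.0 (-1.45). Cxcr4, the receptor of Cxcl12, was lower by a similar amount at 10 µg/ml (695, 590.2, 305 and 279, relative log2 change at 100 µg/ml -1.06). Il6st, the signalling chain for interleukin 6, stood at 0.89 and Il6r at -0.56.

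Prostaglandins and nitric oxide are small mediators made by constitutive and inducible enzymes. In the prostaglandin pathway, Ptgs2, the inducible cyclooxygenase, had signals of 11.3, 35.4, 228 and 3404, a relative log2 change of at least 7.83, while its constitutive relative Ptgs1 stood at -0.17 and Pla2g4a, which frees arachidonic acid, at -0.45. Hpgds, a prostaglandin D synthase of blood cells, was lower (455, 817, 536.5 and 118, -1.69). Of 9 measured members, those 2 were the ones past 2-fold, and 12 more were too dim. In the nitric oxide list 3 of 10 measured members were higher and none lower. Nos2, the inducible nitric oxide synthase, had 11.6, 28.3, 172 and 784 (at least 5.71), with other probe sets of the gene at the floor on both arrays. Gch1, the first enzyme of its cofactor tetrahydrobiopterin, had 125, 169, 1202.5 and 1286 (3.62). Slc7a1, which carries in the substrate arginine, had 86.5, 85.3, 201 and 1064 (3.88), although its probe sets ranged from -0.26 to 3.88. The later enzymes of the cofactor, Spr, Pts and Qdpr, lay within 2-fold.

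Leukocyte adhesion and surface genes differed in both directions. Of 17 measured, 4 were higher, 3 lower and 10 within 2-fold, with a median of 0.21. Icam1, which binds leukocyte integrins, had signals of 1829.9, 2016.5, 6358.5 and 16694 (3.45). Sdc4, a heparan sulfate proteoglycan, had 6544, 6583, 11458.5 and 24509.5 (2.17). Vcam1 (827, 1559, 5461 and 1609, relative log2 change 1.22) and Cd44 (367.5, 249, 973 and 841, 1.46) had their highest signals at 10 µg/ml. Another syndecan, Sdc2, had 1146, 1056, 569.5 and 119 (-3.01). The integrin Itga1 (-1.33) and the adhesion protein Alcam (-1.49) were lower too. Among the largest upward changes were also Olr1, a receptor of oxidized lipoprotein (23.2, 27.8, 379 and 2219, relative log2 change 6.84), and Pvr, an adhesion protein that serves as the poliovirus receptor (50.1, 66.9, 248 and 907, 4.44). Of 11 measured complement and acute phase genes, the receptor C5ar1 was lower at its brightest probe set (-1.14) and none was higher. The measured probe sets of C5ar1 ranged from -1.14 to -0.08. Lcn2, an acute phase protein left out by the filter, had 6.8, 17.3, 74.5 and 374.

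Interferon response genes are those that virus infection and interferons induce. Of 16 measured, 4 were higher, none lower and 12 within 2-fold, with a median relative log2 change of 0.35. Rsad2, an antiviral enzyme, had signals of 429.5, 1608, 11128.5 and 8749 (4.61). Gbp2, an interferon-induced GTPase, had 678, 903, 5654 and 2877.5 (2.35), and Irf1, a transcription factor of this response, 2431, 3305, 12761 and 4719.7 (1.22). Cxcl10, the chemokine of this program, had 332, 547, 8879 and 3556 (3.68). Cx3cl1, the membrane-bound chemokine, had 726, 1078, 5105 and 1700.4 (1.49, measured probe sets from 0.50 to 1.94). All 5 had a lower signal at 100 than at 10 µg/ml. Tap1, the peptide transporter of antigen presentation, was likewise highest at 10 µg/ml, with 757, 653.5, 2535 and 1920.3 (1.603). Mx1, Mx2, Irf7, Oas1a, Ifitm3, Psmb8, Psmb9 and Stat2 lay within 2-fold. Among 11 measured antigen presentation genes, Tap1 was higher and RT1-DMb, which loads peptide onto class II molecules, lower (1511, 1771, 1452 and 161, -2.97). The class II genes RT1-Da, RT1-Ba and RT1-DMa and the invariant chain Cd74 lay within 2-fold, at 0.11, -0.64, -0.59 and 0.57.

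**Figure D4:**
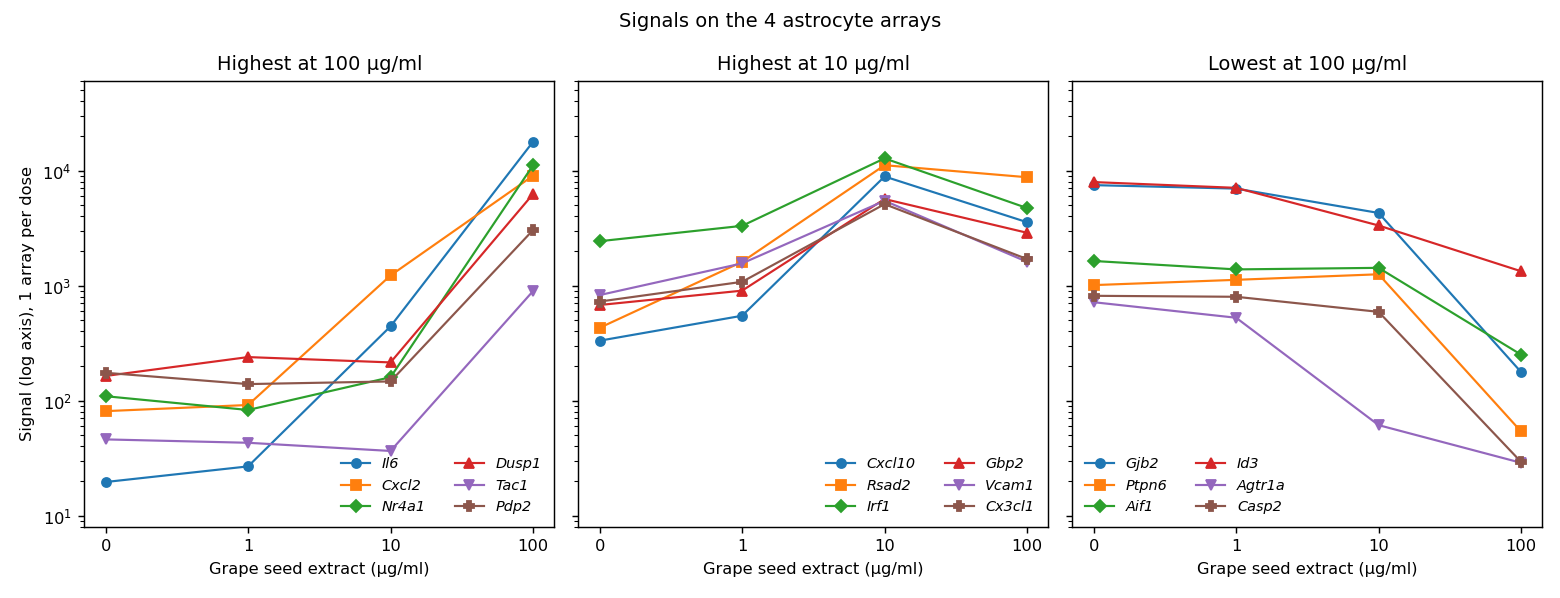
Signals (log axis) of 18 genes on the astrocyte arrays at 0, 1, 10 and 100 µg/ml (doses evenly spaced), 1 array per dose, in 3 panels by where the signal was highest or lowest. Il6, Nr4a1 and Dusp1 are highest at 100 µg/ml, Cxcl10, Irf1 and Vcam1 at 10 µg/ml, and Gjb2, Ptpn6 and Aif1 are lowest at 100 µg/ml.

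Immediate early transcription factors were the list with the second highest median. Of 28 on the array, 21 were measured, 16 of them higher and 2 lower, with a median relative log2 change of 2.77. On the scale without centring 14 were higher. Nr4a1, an orphan nuclear receptor, had signals of 109, 82.9, 159.8 and 11099, a relative log2 change of 6.93. Fos, a subunit of AP-1, had 428, 359, 530.1 and 14647 (5.36). Egr1, a zinc finger factor, had 2967, 2766, 5074 and 22748 (3.20). These 3 showed little of the change at 1 or 10 µg/ml. Other AP-1 subunits did show part of it at 10 µg/ml: Junb had 389.8, 463, 1538 and 10108 (4.96) and Fosl1 74.0, 113, 648 and 1538 (4.64). Jun itself differed by less, with 1385, 1227, 1649.9 and 3766 (1.70). Fosl2 did not pass the filter, with 24.3, 14.7, 36.3 and 1086. Among the rest, Ier3 stood at 4.005, Nr4a3 at 4.14 (its probe sets ranged from 0.23 to 5.09), Egr2 at 3.24, Klf6 at 2.84, Klf4 at 2.77 and Arc at 2.55. Myc, Crem and Mafk passed 2-fold by less (1.21, 1.85 and 1.03). The measured probe sets of Myc ranged from 0.28 to 1.21. Klf9, a factor induced by glucocorticoids, was lower (908, 922, 774 and 211, -1.84). Homer1 was lower at its brightest probe set (-1.05), but its measured probe sets ranged from -1.05 to 1.58.

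MAP kinases relay growth and stress signals, and phosphatases and other feedback proteins turn them off. Of 11 measured phosphatases and feedback genes, 5 were higher, none lower and 6 within 2-fold, with a median of 0.86. Dusp1, the phosphatase that turns off p38 and JNK, had signals of 164, 239, 215 and 6243 (5.51), with 3 measured probe sets from 5.51 to 6.50. Spry1, an inhibitor of Ras signalling, had 188, 176, 258 and 977 (2.64). Rgs1, which shuts off G proteins, had 62.6, 66.3, 60.2 and 357 (2.77). At 1 and 10 µg/ml all 3 lay within 2-fold of their untreated signal. Rrad, a small GTPase, stood at 2.63, and Errfi1, an inhibitor of the EGF receptor, at 1.63 with its highest signal at 10 µg/ml. Of the other measured phosphatases of this family none was higher: Dusp6, which acts on ERK, had -0.996, Dusp5 0.83 and Dusp7 -0.07, and Dusp6 was lower without centring. Of 9 measured kinases 6 were lower and none higher, with a median of -1.11, and 8 were lower without centring. Map2k2, which activates ERK, had 3323, 3084, 3396 and 1219 (-1.19). The p38 gene Mapk14 had 2108, 1831, 1700.0 and 674 (-1.39), with probe sets from -1.94 to 0.21. Mapk9, a JNK gene, stood at -1.20, Map2k6 at -1.52, Map2k5 at -1.11 and Map3k1 at -1.05, while Araf stood at 0.62. The measured probe sets of Map3k1 ranged from -1.96 to -0.63. At 10 µg/ml the lower kinases other than Map2k6 were within 2-fold of their untreated signal.

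The list of the integrated stress response also holds the chaperones of the endoplasmic reticulum. Of 18 measured genes, 9 were higher, none lower and 9 within 2-fold, with a median relative log2 change of 1.07. Atf3 had signals of 444, 464, 1259 and 11436 (4.95). Ddit3, the pro-apoptotic factor also called CHOP, had 392, 407, 724 and 5305 (4.02). Ppp1r15a, which brings the phosphatase that restarts translation, had 407, 357, 980.1 and 3438.5 (3.34). Those 3 were already above their untreated signal at 10 µg/ml. Trib3, a pseudokinase target of ATF4, had 47.7, 58.9, 129.6 and 489 (3.62), but its dimmer probe set gave -0.43. Among the chaperones, Hspa5, the main one of that compartment, had 3209, 2951, 3751 and 6818.5 (1.35). Calr, a calcium-binding chaperone, had 2039.8, 3363, 4833 and 6368.5 (1.90). Pdia4 and Hyou1 stood at 1.44 and 1.21, and Canx, Pdia3, Pdia6, P4hb and Hsp90b1 lay within 2-fold, between -0.09 and 0.71. So did Eif2ak3, the kinase PERK that opens one arm of the response (0.26), and Nupr1, a stress-induced target of ATF4 (0.16).

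ATF4 is known to drive genes of amino acid supply. Of 15 measured genes of amino acid transport and synthesis, 5 were higher and none lower, with a median of 0.70. Slc7a5, the large neutral amino acid transporter, had signals of 519.7, 573, 585 and 2148.5 (2.31), and its partner chain Slc3a2 stood at 0.96. Asns, asparagine synthetase, had 345, 392, 492 and 1101 (1.93). Odc1, the first enzyme of polyamine synthesis, had 1434, 1058.5, 1269 and 4929 (2.04), and Bcat1, a branched-chain aminotransferase, 220.5, 174, 192.5 and 572 (1.63). All 4 lay within 2-fold of their untreated signal at 1 and 10 µg/ml. The serine synthesis genes Phgdh and Psat1 stood at 0.60 and 0.03.

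Other stress lists were those of heat shock proteins, NRF2, drug metabolism and metals. Of 14 measured heat shock proteins 2 were higher: Hspa9, the mitochondrial form (480.1, 532, 746 and 1262, 1.65), and Hspa1a, the inducible cytosolic form (178, 199, 141.5 and 428, 1.53). Hspb1, Hsph1, Dnajb1 and Hsp90ab1, which heat shock also induces, stood between 0.05 and 0.58. NRF2 is the factor that drives antioxidant genes when electrophiles reach the cell. Of 37 measured NRF2 targets and antioxidant enzymes 4 were higher and none lower, with a median of 0.26, a share near the background of 8.79%. Hmox1, which breaks down heme, had 1345, 1608, 5607 and 12871 (3.52). Sod2, the mitochondrial superoxide dismutase that NF-kB also induces, had 312, 343, 887.5 and 1266.5 (2.28). Nqo1, a quinone reductase, had 5332, 4583.5, 7091 and 12124 (1.45), and Aldh3a1 86.1, 109.8, 185.5 and 286 (1.99). Those 4 differed while the glutathione and thioredoxin genes Gclm (0.16), Gsr (0.20), Txnrd1 (0.41) and Prdx1 (0.56) lay within 2-fold. Of 15 measured drug metabolism genes 4 were higher, Por, Abcb1b, Nqo1 and Aldh3a1, and 3 lower, Sult1a1 (-1.42), Nat1 and Cyp2e1. Without centring 2 of them were higher. Cyp1b1, a target of the aryl hydrocarbon receptor, stood at 0.64 at its brightest probe set, and its measured probe sets ranged from 0.64 to 2.13. Of 6 measured metal genes, the iron regulator Ireb2 was lower (-1.21).

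Cholesterol synthesis was the metabolic pathway with the highest median. All 16 members on the array were measured, 10 of them higher and 1 lower, with a median relative log2 change of 1.21, and 8 were higher without centring. Insig1, the sterol sensor whose gene rises when cell sterol is low, had signals of 695, 584, 799 and 3518 (2.60). Fdps, which makes farnesyl diphosphate, had 749.9, 515, 763.5 and 2363 (1.92), and Idi1, which acts just before it, 287, 241, 190.0 and 766 (1.68). At 1 and 10 µg/ml these 3 were within 2-fold of their untreated signal. The later enzymes Hsd17b7, Fdft1, Msmo1, Lss and Sqle stood at 1.76, 1.40, 1.27, 1.16 and 1.13, and Acat2 and Mvd at 1.31 and 1.26. The measured probe sets of Fdft1 ranged from -0.75 to 1.40. Mvk, the mevalonate kinase, was lower (-1.01). Of 26 measured fatty acid genes 2 were higher, the synthesis enzymes Acly (2051, 3211, 3031 and 5258, 1.62) and Scd (159.9, 149.6, 184 and 404, 1.598), with Fasn just short of 2-fold at 0.998. The 3 lower ones were the oxidation genes Crot, a peroxisomal carnitine transferase (577, 683, 449.5 and 40.3, -3.58), Etfdh (-1.70) and Cpt1a (-1.08). Acadvl, Hadha and Hadhb of the same pathway lay between 0.14 and 0.34. Both counts of this list lay near or under the shares over all genes, 8.79% higher and 13.8% lower. Plin2, the coat of lipid droplets, was the higher gene among 13 lipid carriers (3468, 3593, 3986 and 7135, 1.30), and Apoe and Apod stood at 0.08 and 0.60.

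Genes of glucose uptake and glycolysis were higher at a few points. Of 25 measured, 6 were higher and 1 lower, with a median of 0.47. Slc2a1, the glucose transporter of astrocytes, had signals of 1564, 1516, 1956 and 4700.2 (1.85). Slc16a3, which exports lactate, had 114, 93.2, 262 and 412 (2.11), and Pfkp, a phosphofructokinase, 866, 921, 1545 and 2271 (1.65). Adm, a peptide induced by hypoxia, had 472, 414, 337 and 1176 (1.58). In the regulation of pyruvate dehydrogenase, Pdp2, the phosphatase that activates it, had 174.5, 139, 147 and 3037 (4.38), and Pdk2, a kinase that inhibits it, 1766.5, 1784, 1589 and 581 (-1.34). Both were within 2-fold of their untreated signal at 1 and 10 µg/ml. Other glycolytic enzymes, such as Aldoa, Eno1, Pgk1 and Pkm, lay within 2-fold at 0.96, 0.29, 0.61 and 0.89. Of 10 pentose phosphate and nucleotide genes, Atic was higher (1.17) and Idh1, which makes NADPH, lower (3277, 3218, 2426 and 1219.5, -1.17).

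Genes of the bulk machinery of the cell lay within 2-fold, apart from 1 respiratory chain gene. None of 34 measured cytosolic ribosomal protein genes passed 2-fold, with a median relative log2 change of 0.07 and a range from -0.70 for Rps24 to 0.66 for Rpl18. None of 21 proteasome genes did (0.07), although Psma4 was lower by more than 2-fold without centring (-1.08). None of 10 tricarboxylic acid cycle genes or 7 ubiquitin genes did either, with medians of -0.06 and 0.29. Of 25 respiratory chain genes, Atp5f1d, a small subunit of ATP synthase, was higher (2207, 2955, 2956 and 5052, 1.46), and the median was 0.05. Among 12 genes often used as references none passed 2-fold, Actb stood at 0.59 and Tbp at -0.87, and without centring Tbp was lower at -1.13.

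Translation factors help the ribosome to start and extend proteins. Of 15 measured, 1 was higher and 5 lower, with a median of -0.48. Eif5, which helps to select the start codon, had signals of 315.5, 449, 501 and 76.6 (-1.78). Mtor, the kinase that controls translation by nutrients, had 669.7, 341, 513 and 211 (-1.40), Eif4a2, a helicase, 1038, 957, 536 and 353 (-1.30), and Eef2k, which halts elongation, 361, 343, 287 and 109 (-1.47). The subunits of eIF2B, the factor that the integrated stress response inhibits, parted: Eif2b1 was lower (-1.22), Eif2b3 higher (1.08) and Eif2b4 and Eif2b5 lay within 2-fold (-0.57 and -0.90). Among 7 genes of the nucleolus, Polr1b (1.27) and Gnl3 (1.18) were higher. Of 20 lysosomal genes 3 were higher: Ctsb, a cathepsin (4681, 5491, 6735 and 9115, 1.22), and the proton pump subunits Atp6v1b2 (125, 141, 235 and 583, 2.49) and Atp6v1a (1.02). Without centring 1 of those 3 was higher.

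Of 24 measured cell cycle genes, 6 were lower and 1 higher, with a median relative log2 change of -0.60. Mcm5, part of the replication helicase, had signals of 153, 130.5, 91.5 and 33.8 (-1.92). Cdc20, which starts anaphase, had 210.0, 230.1, 159 and 48.8 (-1.84), and Cdk1, the mitotic kinase, 234, 181, 138 and 59.6 (-1.71). The mitotic kinase Plk1 stood at -1.32, Mcm7 at -1.22 and Top2a at -1.04. The 6 had untreated signals between 153 and 575. Others of the list did not follow them: Pcna, the replication clamp, stood at 0.04 and Ccnd1 at 0.33. The gene past 2-fold upward was Cdkn1a, the inhibitor p21 (429.7, 419, 626 and 742, 1.05), which was within 2-fold without centring.

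Several enzymes of DNA repair and apoptosis were among the largest downward changes. Casp2, an initiator caspase, had signals of 815, 799, 591 and 29.3 (-4.54), with its dimmer probe sets up to -0.63. Casp6 had 331, 296, 193 and 54.6 (-2.34) and Casp1, which processes interleukin 1 beta, 186, 213, 195 and 62.0 (-1.32). Those were the 3 lower genes of 14 measured in the apoptosis list, and Cdkn1a the higher one. Bcl2, Bcl2l1, Bid, Bak1 and Mdm2 lay between 0.31 and 0.70. In the repair list 3 of 10 were lower and none higher. Ogg1, which removes oxidized guanine, had 202, 199, 158.5 and 16.2 (at most -3.23). Atrx, a chromatin remodeller, had 234, 177, 204 and 22.4 (-3.12), and Parp1, which marks DNA breaks, 528, 481, 384 and 173 (-1.35). At 100 µg/ml Ogg1 and Atrx lay near or under the floor. Pold1, the catalytic subunit of a replicative polymerase (212, 159, 118 and 20.2, -3.13), and Rpa3, a subunit of the protein that coats single-stranded DNA (298, 191, 114 and 30.7, -3.02), were likewise among the 25 largest downward changes. Mpg, Polb, Apex1, Nthl1 and Xrcc5 stood between -0.28 and -0.15, although the measured probe sets of Polb ranged from -2.10 to -0.19.

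The gap junction gene Gjb2, which encodes connexin 26, held the largest downward change of all genes. Its signals were 7469, 6966, 4278 and 177, a relative log2 change of -5.14, or 35.2-fold, and most of it lay between 10 and 100 µg/ml. In the neuron cultures its signal was between 48.3 and 86.4. Of 10 measured junction genes 3 were lower and 1 higher. Tjp1, the scaffold protein ZO-1 that links junctions to actin, had 4087.5, 3416, 2686 and 727 (-2.23), and Ocln, occludin, 539, 659.9, 299.7 and 189 (-1.25). Like Gjb2, both had their lowest signal at 100 µg/ml. Gja4, another connexin, was higher (92.0, 64.1, 212 and 157, 1.03) and within 2-fold without centring, while Gjb1, Gja5 and Gjb5 lay within 2-fold.

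BMP proteins bind receptor kinases that act through Smad factors, and the Id genes, inhibitors of helix-loop-helix factors, are their standard targets. Of 36 genes of this list on the array 21 were measured, 7 lower, 2 higher and 12 within 2-fold, with a median of -0.64, and 10 were lower without centring. Among the ligands, Bmp4 had signals of 253, 219.8, 128 and 8.1 (at most -3.56) and Bmp6 1035, 1082, 867 and 210.3 (-2.04), while Bmp7 stood at -0.32. The receptor gene Bmpr1a had 319, 152, 250.1 and 95.2 (-1.48). The antagonist Nog went from 159 to 53.2 (-1.32), after a lower signal still at 10 µg/ml. All 3 Id genes on the array were lower. Id1 had 1381, 1416.5, 816 and 134 (-3.11), Id2 1770.1, 2005, 1723 and 324 (-2.19) and Id3 7938, 7073, 3329 and 1332 (-2.31). At 10 µg/ml Id3 was already more than 2-fold under its untreated signal, Id1 was under it by less than 2-fold, and Id2 was near it. In contrast, Inhba, the subunit of activin A, had 54.7, 94.1, 147 and 1566 (5.10), and its antagonist Fst stood at -0.98. Ltbp1, which binds latent TGF-beta, stood at 1.03. The Smad genes Smad1, Smad2 and Smad4 lay within 2-fold (0.34, -0.64 and -0.97), as did the activin receptor Acvr2b (-0.39).

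Other developmental signals, growth factors and receptors held a few genes each past 2-fold, in both directions. Of 13 measured Notch, Wnt and hedgehog genes 3 were lower and none higher: Fzd2, a Wnt receptor (1603, 1548, 752 and 139, -3.27), Hes1, the Notch target (338, 389, 235 and 121, -1.23), and Notch1 (-1.02). The measured probe sets of Notch1 ranged from -1.02 to -0.39. Agtr1a, the angiotensin II receptor, was the 1 lower gene of 15 measured hormone receptors, with 717, 525, 61.2 and 28.8 (-4.38), and most of that difference was present at 10 µg/ml. Cyp26b1, which degrades retinoic acid, had 912, 676, 35.8 and 80.5 (-3.24), lowest at 10 µg/ml. Ptk2, the focal adhesion kinase (659.8, 672, 648.5 and 189, -1.54), and Pdgfra, the PDGF receptor of glial precursors and fibroblasts (3730.1, 4949.7, 7779.8 and 1232, -1.34), were lower among 11 growth factor receptors. Pdgfra had first been higher at 10 µg/ml. Of 15 measured growth factors 3 were higher, Hbegf, an EGF receptor ligand (74.8, 118, 104 and 650.2, 3.38), Gmfb (1.495) and Nrg1 (1.27), and 3 lower, Pdgfa (-1.33), Igf1 (-1.07) and Ptn (-1.03). The dimmer probe set of Hbegf gave 0.61 and those of Igf1 ranged up to 2.68. Areg, another EGF receptor ligand, did not pass the filter, with 5.1, 33.3, 34.3 and 955. Igfals, which carries IGF in the blood, was the other lower gene of 9 in the IGF system (-1.09). Among 13 secreted peptides 3 were higher and none lower: Tac1, the substance P precursor (46.0, 43.0, 36.5 and 895, 4.54, with a dimmer probe set at 1.53), Vgf (1.65) and Adm.

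Matrix proteases, their inhibitors and the plasminogen system remodel the matrix around cells. Of 19 measured genes, 7 were higher, none lower and 12 within 2-fold, with a median of 0.70. Mmp9, a gelatinase, had signals of 158, 140.5, 792 and 3229.5 (4.61), and Mmp3, stromelysin, 40.9, 60.4, 311 and 669 (4.29). Timp1, the inhibitor that restrains them, had 4626, 4889, 4993 and 12636 (1.71). Both proteases were above their untreated signal at 10 µg/ml already, and the inhibitor at 100 µg/ml. F3, tissue factor, which starts coagulation, had 562, 779.6, 538 and 3174 (2.76). Plaur, the urokinase receptor, had 189.9, 162, 259.9 and 994 (2.65), its ligand Plau 250.2, 249.8, 148 and 502 (1.26) and the inhibitor Serpine2 163, 134, 165 and 348 (1.35). Mmp2, Mmp14, Mmp11, Mmp16, Mmp23, Plat, Timp2 and Timp3 lay within 2-fold. Of 27 structural matrix genes 3 were higher and 2 lower. Lama1, a laminin chain, stood at 1.598, Tnc at 1.30 and Thbs4 at 1.12, and the fibrillar collagen Col5a2 was lower (6163, 5888.5, 4360.3 and 2059, -1.32), as was Dcn at its brightest probe set (-1.71, measured probe sets from -1.71 to 0.09). Of 36 cytoskeletal genes, 3 were higher, Capg (1631, 3568, 3994 and 4704, 1.79), Pfn1 (1.62) and Ezr (1.17), which cap, supply or anchor actin. Another 3 were lower, Cald1 (-1.74), Cnn3 (6116, 6466, 5757 and 1926, -1.41) and Map2 (-1.03). These counts lay near or under the shares over all genes, 8.79% higher and 13.8% lower. The small GTPases Rac1, Rhoc and Arf1 were higher by 1.16, 1.17 and 1.06 among 21, and none of the 21 was higher without centring.

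Ion channels, transporters and second messenger genes were mostly too dim to measure or within 2-fold. Of 43 channel genes on the array 10 were measured, 3 of them lower: Itpr1, which releases calcium from the endoplasmic reticulum (356.5, 293, 195.5 and 41.8, -2.83), and the calcium channel subunits Cacnb2 (-1.83) and Cacna1c (-1.22). Among 17 measured pumps and transporters, Slc4a4, the sodium bicarbonate cotransporter of astrocytes, was lower (1216, 927, 412 and 274.5, -1.89), and the potassium chloride cotransporters Slc12a7 (322, 800.4, 1065 and 973, 1.85) and Slc12a4 (1.21) were higher. Of 11 genes for glutamate and GABA uptake, Slc1a3 (-1.78, measured probe sets from -2.17 to -0.34) and Gad1 (-1.09) were lower, and Glul, glutamine synthetase, stood at 0.95. In the list of phosphatases and cyclic nucleotide signalling, 2 of 29 were higher, Crem and the phosphodiesterase Pde4b (725, 787, 2619.7 and 1356, 1.16), and 4 lower. Among the lower ones were the phosphatase Ptprf (2063, 2034, 2101 and 405.5, -2.09), the kinase Prkcb (844, 954, 921 and 151, -2.23) and Pde4a (-1.88). The measured probe sets of Prkcb ranged from -2.23 to -0.78. These counts lay near or under the shares over all genes, 8.79% higher and 13.8% lower. Of 8 clock genes, Bhlhe40 was higher (48.5, 77.1, 196 and 144.5, 1.84) and Bmal1, the core activator, lower (203, 241, 276.5 and 53.5, -1.66). Among 7 glucocorticoid-response genes, 2 were higher (Dusp1 and Nfkbia) and Klf9 was lower.

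The markers of microglia and macrophages did not move as 1 group. Of the 6 lower ones, Ptpn6, a phosphatase of blood cells, had signals of 1009.5, 1122, 1254 and 53.9 (-3.97). P2ry12, the nucleotide receptor of resting microglia, had 371.5, 288, 126 and 31.6 (-3.29), and P2ry6, which senses UDP, 259, 270.4, 262 and 18.6 (-3.54). Ptpn6 and P2ry6 were at their untreated level at 10 µg/ml, and P2ry12 was already lower there. Dock8, a guanine exchange factor of leukocytes, had 769, 649, 521 and 55.0 (-3.54, measured probe sets from -3.54 to -1.50). Arl11 had 970.4, 1047.5, 1009 and 91.4 (-3.15) and Aif1 1636.5, 1382, 1426 and 251 (-2.45), with a dim probe set of Aif1 at 0.61. Against these, Lgals3, a lectin of activated macrophages, had 4672, 5691, 7267 and 11429.6 (1.55), Fcgr2b, an antibody receptor, 248, 258, 618 and 1162 (2.49), and Cd14 was higher as given above. The other measured markers lay within 2-fold: Lyz2, lysozyme, had 15616, 14839.5, 13383 and 10258.5 (-0.35), C1qb 2722, 3367, 3363.5 and 1579 (-0.52), Ctss 4719, 5766, 5311 and 2884 (-0.45) and Cd53 425, 778, 989 and 403 (0.18). Rgs18, a regulator of G proteins found in blood cells, went from 284 to 2.0 (at most -3.73) and Apobec1, an RNA editing enzyme, from 750.0 to 78.1 (-3.003). P2ry2, a nucleotide receptor of many cell types, was higher (22.0, 52.2, 198 and 252, 3.78).

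**Figure D5:**
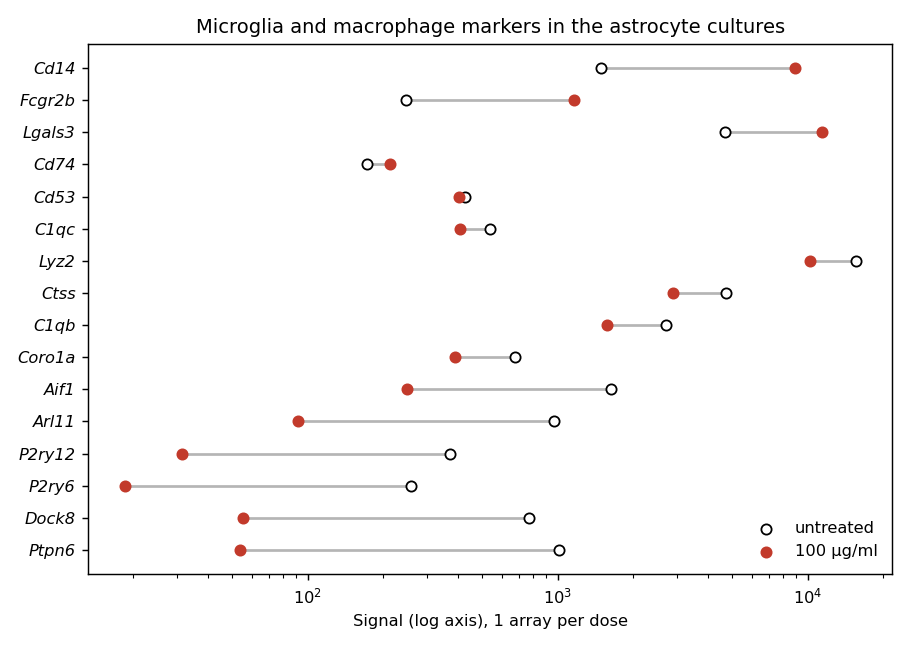
Signals (log axis) of the 16 measured microglia and macrophage markers on the untreated astrocyte array (open circles) and at 100 µg/ml (filled circles), 1 array per dose, joined by a line per gene. Ptpn6, Dock8, P2ry6, P2ry12, Arl11 and Aif1 are lower at 100 µg/ml, Cd14, Fcgr2b and Lgals3 higher, and the other 7 lie within 2-fold after the median change is taken off.

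Most markers of the other cell types lay within 2-fold. Of 23 measured astrocyte markers, 5 were lower and none higher, with a median relative log2 change of 0.06 and a summed signal of 159439, 157531, 142364 and 137748. Those 5 were Id1, Id3, Slc4a4, Slc1a3 and Hes1. S100b stood at -0.12, Aldoc at 0.47, Vim at 0.22 and Gja1 at -0.67. Aqp4 lay within 2-fold at -0.89 and past it without centring (-1.15). Of 17 fibroblast and meningeal markers, Mgp, an inhibitor of calcification, was higher (1203, 1648, 2628 and 5516.5, 2.46), Dcn was lower, and Col1a1, Col1a2, Col3a1 and Lum stood between -0.40 and 0.29. The measured probe sets of Col1a1 ranged from -0.40 to 2.05. The summed signal of the whole fibroblast and meningeal list was 75353, 70842, 65196 and 73777. In the oligodendrocyte lineage, Pdgfra was the 1 of 7 past 2-fold, with Mbp at 0.68 and Cnp at -0.07, and the summed signal was 11486, 11738, 14952 and 9401. Of 15 measured neuron markers, Map2 and Gad1 were lower and Vgf higher, and of 5 measured endothelial and pericyte markers the transporter Slco1a4 was lower (-1.12).

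Some of the largest downward changes fell in no list. Medag, a gene of fat cell formation, went from 324 to 10.8 (at most -3.92), Hps3, of organelle formation, from 268 to 20.7 (-3.43) and Zbtb24, a zinc finger factor, from 167.5 to 9.2 (at most -2.97). All 3 ended near or under the floor. In all, 843 of the 2695 measured genes belonged to a list, and of these 135 were higher and 88 lower. The signal filter kept out 2041 genes. Of these, 61 were at least 2-fold higher with a treated signal above 79.9 and 61 at least 2-fold lower with an untreated signal above it, so a gene that was near the floor at the lower doses could be missed, as Il1rn, Areg, Lcn2 and Fosl2 show, which were picked after their values had been seen.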

How the data were processed

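The data are Affymetrix rat arrays of total RNA, 1 for each of 7 cultures, labelled from 100 ng by a two-cycle cRNA procedure per the labels' protocols. The deposited values are linear intensities, which the authors computed with GCOS, per the submitters' processing notes. No version or setting of it was named there. The 7 arrays had 2%-trimmed means from 500.731 to 500.874, so the scale was kept. Of 8799 probe sets, 59 controls were left out. A single symbol was given for 7006 of the other 8740, several for 308 and none for 1426, and 6985 gene IDs were found in a RefSeq table, which changed 0 symbols. Signals under the 25th percentile (17.9) were raised to it. Probe sets were kept where their mean log2 signal over the 4 astrocyte arrays exceeded the median of all signals (79.9). The array at 100 µg/ml enters that mean, so a gene dim at lower doses can be kept through its high signal there. Log2 changes of 100 over 0 µg/ml were centred on their median, and no test was possible with 1 array a side. A gene is its brightest probe set by mean log2 signal.

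The comparison, its 5 markers, the 61 gene lists and the naming rule were chosen with earlier results of these data known. The rule took the 25 largest changes each way whose kept probe sets all passed 2-fold, up to 5 list members each way past 2-fold, list members described as within it, and the markers that define cell types. Symbols are those of the platform annotation. Promoter windows came from a RefSeq table of GRCr8. Alternatives were quantile normalization, other floors and filters, the mean over probe sets, no centring and other reference arrays. The calculation was tested on simulated data. The number of arrays limits the precision. Values were computed with Python 3.11.15, numpy 2.4.6 and pandas 2.3.3 and drawn with matplotlib 3.10.9.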

Additional observations from a re-analysis of the deposited data

Results flagged for a closer look

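A control probe set for 5S ribosomal RNA, left out of the comparison, had a signal of 197.7 on the astrocyte array at 100 µg/ml. Its signal was 9.0 on the untreated astrocyte array and 3.6 and 5.8 at 1 and 10 µg/ml, and between 6.1 and 7.8 on the neuron arrays. It was noted because a signal lay above the control level in data the comparison did not use. What it has to do with the other differences of that array was not tested.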

How the results depend on the processing

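With 1 array a side no value has an error, and the alternatives show only how the processing moves a size. No paired analysis was possible because the groups hold 1 array each. The median change of -0.26 was -0.0860 after quantile normalization, -0.0541 with no signal filter and -0.14 with a filter at the 75th percentile. The 400 higher and 573 lower probe sets became 183 and 209 of 2129 with that stricter filter, 202 and 321 of 2479 with 1 mean value per gene, 282 and 806 without centring, and 1173 lower with no filter. After quantile normalization 425 were higher and 480 lower of 4335. Fewer or more probe sets were tested in these settings, except without centring. The 50 largest changes kept their direction and stayed past 2-fold under quantile normalization, with no filter, without centring and against the 1 µg/ml array or the mean of the 3 lower doses. In other settings fewer of the 50 could be compared. They were 45 with no floor, with a floor at the 10th percentile or with 1 mean value per gene, and 18 with the filter at the 75th percentile. All of those kept their direction and stayed past 2-fold. Against the 10 µg/ml array 46 of the 50 did. There the change turned for Ccl5 (-0.0829), Rsad2 (-0.17), Cxcl10 (-1.14), Cx3cl1 (-1.41), Nfkb1 (-0.26), Irf1 (-1.26), Gbp2 (-0.80), Tap1 (-0.22), Vcam1 (-1.59), Cd44 (-0.0337), Errfi1 (-0.0634), Gja4 (-0.25), Bhlhe40 (-0.27), Abcb1b (-0.61) and Pde4b (-0.77), which were higher against the untreated array. It also turned for Cyp26b1 (1.35), Cxcr4 (0.0481), Map2k6 (0.15), Nog (0.70) and Igfals (0.16), which were lower. Vcam1 stood at -0.0494 against the mean of the 3 lower doses. The reference array alone differs in these settings. Probe sets of a gene often disagreed in size, and for Parp1, Eif2b1 and Por, among others, another measured probe set lay within 2-fold. A signal near 17.9 limits what a change can show.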
